A study of Mus musculus with 12 samples.

Results

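The genes described here code for the proteins of the cytosolic ribosome. Members were the protein-coding genes whose mouse symbol is Rpl or Rps followed by a number (with an optional a, l or x), Rplp0, Rplp1, Rplp2, Rpsa, and Rps3a1. This rule used names only and found 81 of the 25700 genes in the count table, 49 of the large subunit and 32 of the small subunit. All libraries came from Schwann cells of mouse sciatic nerves at postnatal day 5, from P0Cre : ReYFP : βAct-DsRed mice on a C57bl/6J background. In these mice Cre expressed in the Schwann cell lineage switches on eYFP there, and DsRed is driven by a beta actin promoter in cells generally. The eYFP-positive cells were sorted through 3 gates of 4 libraries each: allSC took all of them, mSC those with high side scatter (enriched for myelinating cells) and nmSC those with low side scatter (enriched for not-myelinating cells). The labels give each library a subject number, 1 to 4, which the 3 gates share. It is read here as the mouse, and each library is named by gate and number (mSC 4). Per the paper, each gate drew equally on male and female mice, and in its multidimensional scaling plot the samples of a gate grouped by sex. The sex of each mouse is not in the labels, and sex was not used.

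A cytosolic ribosome holds 1 copy of nearly every one of these proteins, so cells make them in step with each other and with ribosomal RNA. Their mRNAs are short and abundant, and most begin with a C followed by a tract of pyrimidines, the TOP motif, through which mTOR signalling and the protein Larp1 control their translation. A growing Schwann cell that builds myelin has a high demand for protein synthesis. RNA sequencing measures the mRNAs only, not the ribosomes or their translation.

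At the annotated start of the mRNA, some members share more than their names. RefSeq promoter entries (GRCm38.p6, 250 bases before and 50 after each annotated start) matched 61 of the 81 members. A C at the annotated first base followed by at least 4 further pyrimidines (C or T, on the strand of the gene) was found in 13 of these 61 members (21.3%) and in 3.01% of the 27025 genes of the table. Most members thus lacked it at that base: 20 of 61 began with a C, and the median run there was 0. Whether the annotated starts are those used in these cells was not tested. A run of 8 or more pyrimidines touching the 10 bases on either side of the start was found in 28 of 61 members (45.9%) and in 16.1% of all genes. Of the members with a long run at the annotated first base, 6 are shown from 10 bases before the start, with that run in capitals, because they show what the TOP motif looks like in genes of both subunits.
Rpl15: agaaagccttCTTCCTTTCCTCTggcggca
Rpl35: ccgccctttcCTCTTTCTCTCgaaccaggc
Rps10: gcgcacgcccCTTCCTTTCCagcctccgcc
Rps18: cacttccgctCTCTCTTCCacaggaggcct
Rps6: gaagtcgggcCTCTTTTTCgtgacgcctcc
Rpl28: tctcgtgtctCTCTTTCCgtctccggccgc
These windows of 30 bases lie on chr14:18270967-18270996 (Rpl15, minus strand), chr2:39005112-39005141 (Rpl35, minus strand), chr17:27635225-27635254 (Rps10, minus strand), chr17:33955646-33955675 (Rps18, minus strand), chr4:86857348-86857377 (Rps6, minus strand) and chr7:4792955-4792984 (Rpl28, plus strand). Rps6 is the protein that S6 kinases phosphorylate downstream of mTOR. None of the 69 genes of mitochondrial ribosomal proteins with an entry had a C followed by 4 pyrimidines at the annotated start, and 4 of 63 genes of the respiratory chain did.

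Counted reads per library ran from 8180927 (nmSC 1) to 16918122 (mSC 1), which puts 3 counts, taken as the smallest level the depth can show, at 0.177 to 0.367 CPM (counts per 1000000 counted reads). The gates were checked against markers: Mbp, a protein of compact myelin, had 52034 ± 3476 CPM in mSC and 5658 ± 554 CPM in nmSC (SD, n = 4). Markers of endothelial, immune, mural, erythroid and neuronal cells took at most 0.00382% of counts for any list in any library. Of the fibroblast list, Col1a1 alone was abundant (mean 3427 CPM in nmSC), while Dcn, Lum and Pdgfra had means of at most 12.8 CPM in any gate. In sorted cells read in bulk, a change in the number of cells of a kind and a change in RNA per cell cannot be told apart. Normalised values below are CPM scaled by the TMM method (trimmed mean of M-values), whose factors were 0.744 to 0.871 in mSC and 1.16 to 1.28 in nmSC.

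Ribosomal protein mRNAs took a small part of each library, and that part varied as much between the libraries of a gate as between gates. In mSC the 81 genes took 0.767%, 1.13%, 1.16% and 1.80% of the counts in mice 1 to 4. In nmSC they took 2.52%, 1.68%, 1.58% and 1.31%, and in allSC 1.11%, 1.33%, 1.40% and 1.28%, in the same order of mice. The mSC and nmSC ranges overlap, and 3 libraries lie apart from the others of their gates: mSC 1 low, mSC 4 high and nmSC 1 high. The gate means were 1.21% ± 0.430 (SD, n = 4) in mSC, 1.28% ± 0.125 (SD, n = 4) in allSC and 1.77% ± 0.522 (SD, n = 4) in nmSC. Counting error is far smaller than this spread, since the share in nmSC 1 had a 95% Wilson interval of 2.51% to 2.53%. The share in mSC divided by the share in nmSC was 0.304, 0.672, 0.730 and 1.37 in mice 1 to 4, so it was lower in mSC in 3 of 4 mice and higher in mouse 4. Per length (the sum of reads per kilobase of principal transcript, a length chosen after the values were seen), the members took 2.33% ± 0.686 (SD, n = 4) in mSC and 3.67% ± 1.25 (SD, n = 4) in nmSC.

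**Figure D1:**
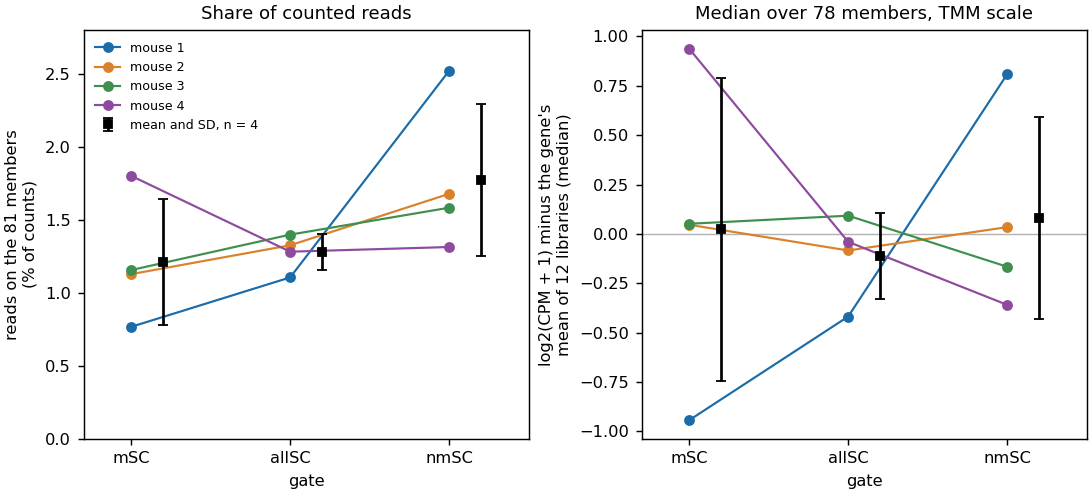
Left, reads on the 81 ribosomal protein genes as a percent of all counts; right, the median over the 78 tested members of log2(CPM + 1) minus each gene's own mean of 12 libraries. Coloured lines join the 3 libraries of a mouse and black squares give gate mean and SD (n = 4); mouse 1 runs upward from mSC to nmSC, from 0.767% to 2.52% of counts, and mouse 4 downward, from 1.80% to 1.31%.

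Both subunits moved together. Large subunit genes took 0.80% ± 0.269 (SD, n = 4) of counts in mSC and 1.13% ± 0.294 (SD, n = 4) in nmSC, and small subunit genes 0.413% ± 0.162 (SD, n = 4) and 0.643% ± 0.228 (SD, n = 4). The ratio of small to large subunit counts was lowest in mSC 1 (0.456) and highest in nmSC 1 (0.629), and lay between 0.517 and 0.559 in the other 10 libraries. Thus the libraries that stood apart in the total share, other than mSC 4 (0.539), also stood apart in the balance of the subunits.

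In a model of all genes over the 12 libraries, no ribosomal protein gene passed the test for mSC against nmSC. Of the 81 members 78 passed the filter on low counts. Among these, 0 had an adjusted p under 0.05 in either direction (quasi-likelihood test of edgeR, Benjamini-Hochberg adjusted over the 18597 tested genes), where 40.5% of all tested genes did, 20.4% higher and 20.1% lower in mSC. At an unadjusted p under 0.05 the number was 1 of 78 (Rpsa), against 49.4% of all genes, and DESeq2's Wald test also called 0 members. The log2 fold changes of the members ran from -0.76 to 0.43 with a median of -0.03, 34 above and 44 below 0, beside a median of -0.16 over all tested genes. Their standard errors were large, with a median of 0.390 against 0.228 for all tested genes, so a missing call does not show that the levels are equal. In no member did the 4 mSC libraries and the 4 nmSC libraries separate without overlap, while 16.8% of all tested genes were higher and 17.4% lower in every mSC library. With library size alone, the member median was -0.65 and that of all genes -0.73, and 15 of 78 members were called lower in mSC, where 55.9% of all tested genes were (7.77% were higher, and 0 members). Scaled on the members themselves (added after the values were seen), 0 members were called, with 6.28% of all tested genes higher and 5.47% lower in mSC. That scaling brings the members of all libraries to a common level (member median -0.02), so it cannot show a shift that they share.

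**Figure D2:**
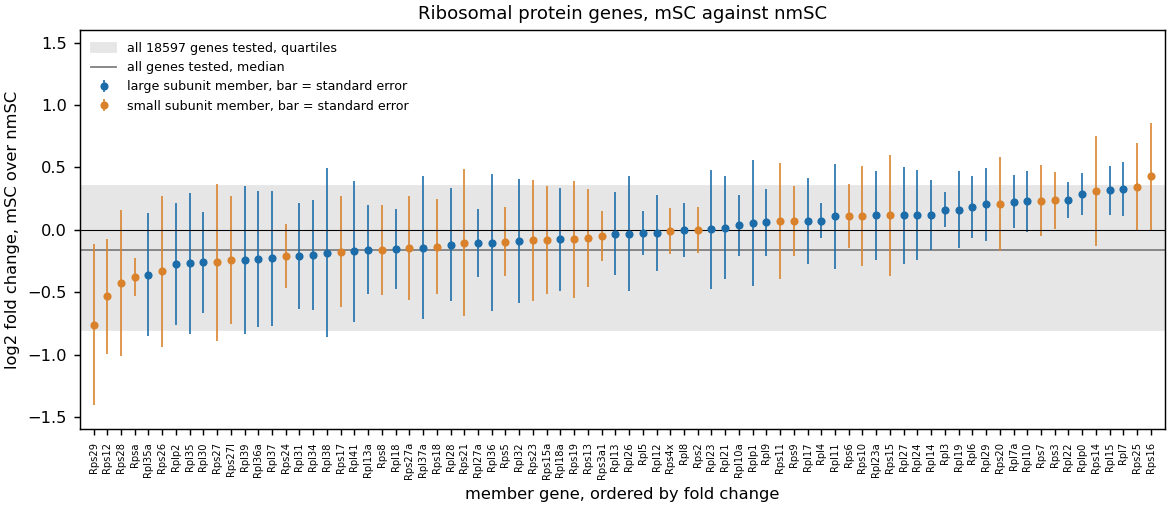
Log2 fold change of mSC over nmSC for the 78 tested members, ordered by size, with standard errors from the model (blue, large subunit; orange, small subunit). The grey band and line give quartiles and median of all tested genes; every member lies between -0.76 and 0.43, while the band runs from -0.80 to 0.35.

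Against allSC, the counts were the same: 0 of 78 members were called in mSC against allSC, where 17.5% of all genes were (8.79% higher and 8.72% lower in mSC), and 0 of 78 in nmSC against allSC, where 10.6% were (2.85% higher and 7.76% lower in nmSC; the same edgeR test). At an unadjusted p under 0.05 the numbers were 0 and 0, against 31.3% and 21.3% of all genes, and DESeq2's Wald test called 0 in both. These comparisons share the allSC libraries. The member medians were 0.29 for mSC and 0.27 for nmSC, beside medians of -0.05 and 0.04 over all genes. One library turned each of these: the member median was -0.08 for mSC without mSC 4 and -0.05 for nmSC without nmSC 1. Of all tested genes 69.5% had an allSC mean between those of mSC and nmSC and 15.6% one under both, while 3 of 78 members lay between and 75 under both. Leaving out mSC 4 and nmSC 1 (a choice made after their values were seen), 36 members (46.2%) lay between and 5 (6.41%) under both, against 69.9% and 13.6% of all tested genes. The rest, a larger part of the members than of all tested genes, then had an allSC mean above both. Without mSC 4 alone 64 lay between and 14 under both (72.4% and 13.3% of all tested genes), and without nmSC 1 alone 49 and 29 (69.3% and 14.8%).

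Library by library the members were high or low together. In mSC 4 all 78 tested members were above their own mean of 12 libraries on the log2(CPM + 1) scale, with a median deviation of 0.94. In nmSC 1, 76 of 78 were above it (median 0.81), and in mSC 1 all 78 were below it (median -0.94). In the other 9 libraries the median lay between -0.42 (allSC 1) and 0.09 (allSC 3). Every one of the 78 was higher in mSC 4 than in any other mSC library and lower in mSC 1 than in any other mSC library. The highest library of all 12 was mSC 4 or nmSC 1 for each of the 78 members, 42 and 36 of them in that order, against 21.7% and 12.3% of all tested genes.

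**Figure D3:**
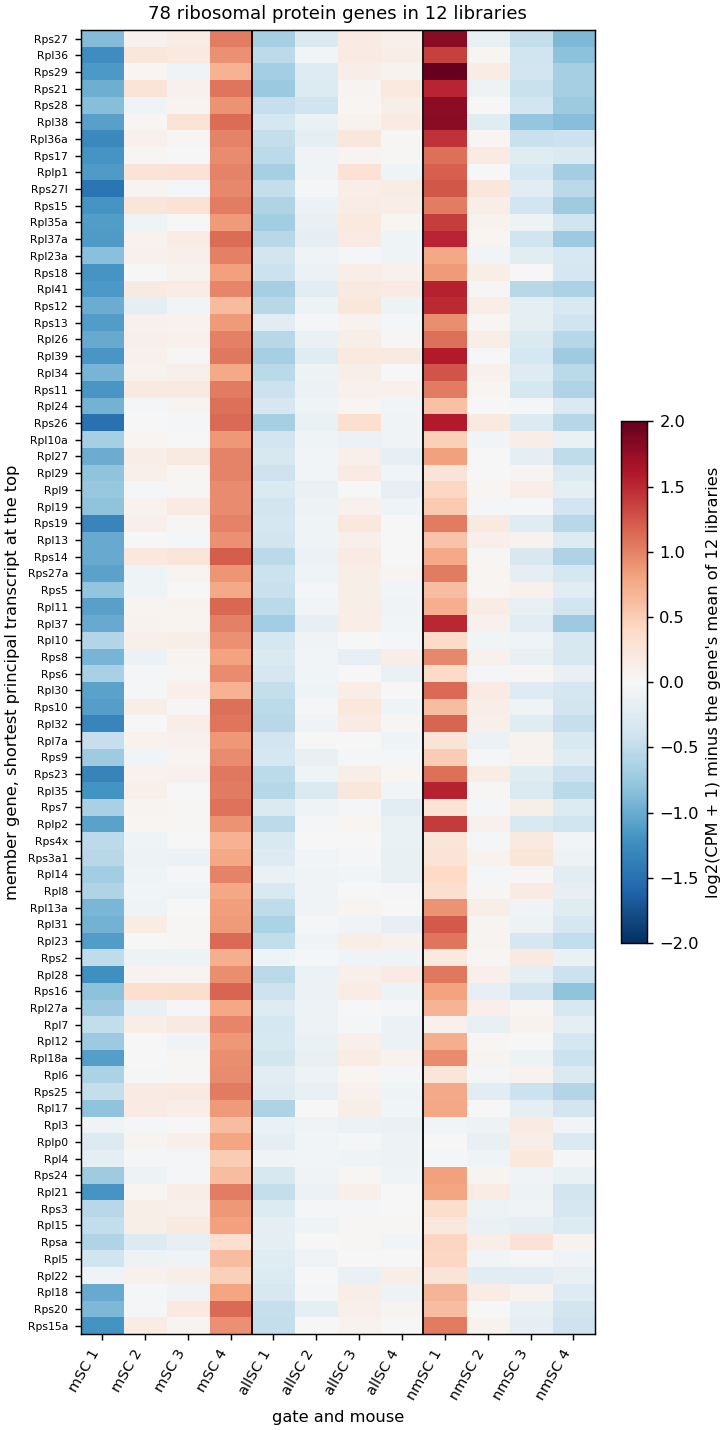
Deviation of log2(CPM + 1) from each gene's mean of 12 libraries for the 78 tested members (rows, shortest principal transcript at the top) in each library (columns, by gate and mouse). Red is above and blue below the mean, with colours saturating at -2 and 2; the columns of mSC 4 and nmSC 1 are red and that of mSC 1 is blue over nearly all rows, and nmSC 1 is darkest at the top, among the shortest genes.

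Within a mouse the members therefore moved in opposite directions in different mice. In mouse 1 all 78 were lower in mSC than in nmSC, with a median difference of -1.80 on the log2(CPM + 1) scale. In mouse 4 all 78 were higher in mSC, with a median of 1.29. Mice 2 and 3 were mixed, with 35 and 56 members higher in mSC and medians of -0.02 and 0.23. The medians of all tested genes over the same pairs lay between -0.11 and -0.08. It follows from mice 1 and 4 alone that no member was higher or lower in mSC in all 4 mice. With the mouse as a block in the model, 0 members were called in any of the 3 comparisons, as without it.

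As a description, the spread within gates was larger in the members than in most genes, but not in the members alone. The pooled SD of log2(CPM + 1) within gates had a median of 0.580 over the members and 0.267 over all tested genes, or 0.204 over the 8235 tested genes with a mean CPM at least that of the lowest member. The 74 tested subunits of the respiratory chain and ATP synthase came close to the members, with a median of 0.547. Genes of mitochondrial ribosomal proteins had 0.309. After the member median of each library was subtracted, which lowers a shared spread by construction, the median of the members' SD fell to 0.194. Among the 3 members with the most counts the SD rose instead, in Rplp0 from 0.278 to 0.444, in Rpl4 from 0.194 to 0.540 and in Rpl3 from 0.202 to 0.548. Across the 12 libraries the correlation of 1 member with another had a median r of 0.92. All pairs share the same libraries, with mSC 1, mSC 4 and nmSC 1 among them, so this is a description. Rpl23, a large subunit protein, followed the member median most closely (r = 0.99). Rpl3 (r = 0.55), Rpl4 (r = 0.62), Rpl22 (r = 0.74), Rplp0 (r = 0.75) and Rpsa (r = 0.77) followed it least, and the same 5 genes had the smallest SD within gates, between 0.194 and 0.278. These genes were chosen after their values were seen.

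Transcript length moved with this pattern in part. The principal transcripts of the members had a median of 886 bases, against 2969 over the 18576 tested genes with an annotated one. In nmSC 1 shorter members deviated more: their median deviation was 1.41 under 600 bases, 0.74 from 600 to 1000 and 0.69 from 1000 to 2000. Other tested genes of the same length classes had medians of 0.21, 0.18 and 0.00479 in that library. In mSC 1 the members of these classes had medians of -1.13, -0.99 and -0.69, and the other genes -0.24, -0.32 and -0.08. In mSC 4 the members had 0.96, 0.97 and 0.86, and the other genes 0.46, 0.59 and 0.29. In these 3 libraries the member medians thus lay further from 0 than those of other genes of their length, in each of the 3 classes. The 3 libraries were singled out by the members' own values, so this was in part set by that choice. The other genes were matched on length only, not on level. In mSC 4 the whole library held fewer reads on long transcripts: genes other than members with principal transcripts of 4000 bases and over took 19.4% of its counts, against 26.1% to 29.0% in the other mSC libraries and 30.4% to 31.9% in nmSC. The part of length, depth, RNA quality or sex in the member pattern was not tested. nmSC 1 was the shallowest and mSC 1 the deepest library.

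**Figure D4:**
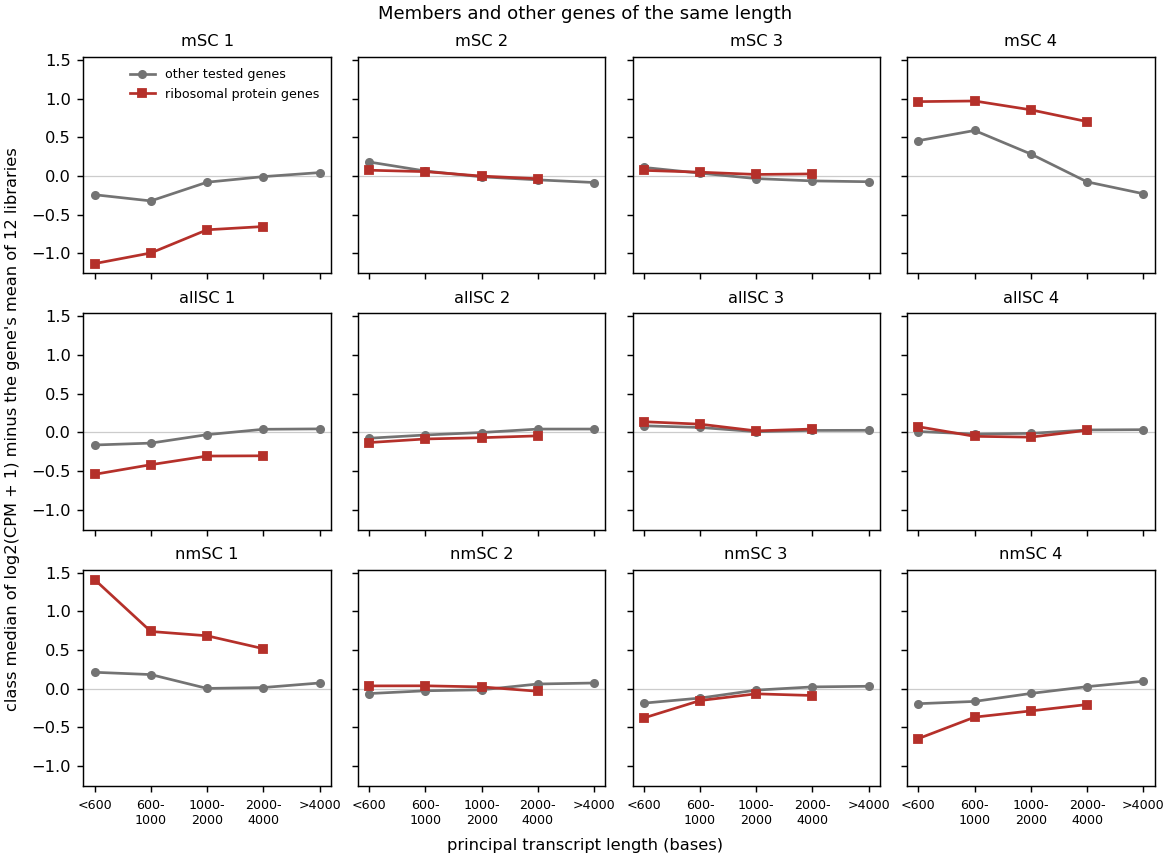
Median deviation of log2(CPM + 1) by class of principal transcript length in each of the 12 libraries, for the members (red squares, classes with at least 4 members) and for all other tested genes (grey circles). The red and grey lines part in mSC 1, mSC 4 and nmSC 1, and to a lesser degree in allSC 1 and nmSC 4, and lie close together in the other libraries.

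Length offsets were taken from each library's own trend of log2 CPM, less the gene's mean over libraries, on the union of exons. With them, 2 of 78 members were called higher and 0 lower in mSC than in nmSC, where 26.2% and 16.1% of all tested genes were. These were Rpl15 (log2 fold change 0.45, adjusted p = 0.0336 from edgeR) and Rpl22 (0.38, adjusted p = 0.0258 from edgeR). With the principal transcript in place of the union of exons (added after the values were seen), 0 of 78 were called higher and 2 lower, where 26.5% and 16.1% of all tested genes were: Rpsa (-0.34, adjusted p = 0.0418 from edgeR) and Rps12 (-0.63, adjusted p = 0.0280 from edgeR). With the replicate block added to each, the calls of Rpl15 and Rps12 were lost and those of Rpl22 and Rpsa were not. The union of exons has a median of 1739 bases over the members and the longest transcript one of 1059 bases.

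The member closest to a call was Rpsa, the laminin receptor and 40S protein (chromosome 9 of GRCm38, 120127689 to 120132369, plus strand; 3 annotated genes on the same strand overlap it). Its level was 280, 354, 382 and 540.0 CPM in mSC, in the order of mice 1 to 4, and 579, 469, 523 and 449 CPM in nmSC. In allSC it was 379, 428, 434 and 413 CPM. All mSC libraries but mSC 4 lay under every nmSC library, and every nmSC library lay above every allSC library, the only member of which this was true (7.36% of all tested genes were higher in every nmSC library than in any allSC library). The log2 fold change of mSC against nmSC was -0.38 (model error 0.154, Benjamini-Hochberg adjusted p = 0.0565 by edgeR), and Rpsa was lower in mSC in 3 of 4 mice. Without mSC 4 it was -0.57 (adjusted p = 0.000173 from the same test), and without mSC 4 and nmSC 1 it was -0.48 (adjusted p = 0.000812 from edgeR). mSC 4 is the mSC library that goes against the direction, and leaving out any other single library gave no call (adjusted p from 0.0577 to 0.211 with edgeR). Scaled on the members, Rpsa was at -0.34 (model error 0.362, adjusted p = 0.609 from edgeR). Rpsa was chosen after its values were seen.

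The 4 most negative log2 fold changes belonged to small subunit genes, Rps29, Rps12, Rps28 and Rpsa. So did the most positive, of Rps16 (0.43) and Rps25 (0.35). Rps29, Rps12, Rps16 and Rps25 were chosen after their values were seen. Rps29, a short zinc-binding protein, had 23.7, 55.1, 51.1 and 87.8 CPM in mSC and 235, 59.7, 40.7 and 33.2 CPM in nmSC, in the order of mice 1 to 4. The nmSC 1 value is above all 11 others, and the remaining 3 nmSC libraries lie inside the mSC range. Its log2 fold change of -0.76 had a standard error of 0.646 (adjusted p = 0.367 from edgeR). Rps12 was also highest in nmSC 1, with 24.0, 42.6, 46.6 and 76.2 CPM in mSC and 138, 53.7, 42.2 and 39.4 CPM in nmSC (log2 fold change -0.53, standard error 0.460, adjusted p = 0.374 from edgeR). Rps28, which a gene on the opposite strand overlaps, had 108 CPM in nmSC 1 and 17.9 to 30.7 CPM in the other nmSC libraries. At the other end, Rps16 had 43.9, 99.1, 101 and 177 CPM in mSC and 138, 70.3, 59.9 and 44.7 CPM in nmSC (log2 fold change 0.43, standard error 0.431, adjusted p = 0.446 from edgeR). For Rps16 the gates overlap, with mSC 1 as the lowest of the 12 libraries and mSC 4 as the highest. The members with a change closest to 0 were Rpl8, Rps2 and Rpl23, at -0.00103, 0.00164 and 0.00317. Rpl23, a large subunit protein, still had 290 CPM in mSC 4 and 130 CPM in mSC 2, so a mean change near 0 did not mean like libraries.

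Among themselves the members differed widely in level per length. Mean RPKM (CPM per kilobase of exon union, over 12 libraries) had a median of 65.8 over the tested members and ran from 7.91 to 860, with quartiles of 33.0 and 104. The highest was Rplp0, the stalk protein long used as a reference gene in PCR, at 860 ± 200 (SD over 12 libraries), then Rpl4 at 525 ± 76.9, Rps3a1 at 320 ± 81.1, Rplp1, another stalk protein, at 286 ± 142, and Rps4x, coded on chromosome X, at 281 ± 63.4. Rplp0 was above Rpl4, and Rpl4 above Rps3a1, in all 12 libraries, while Rps3a1 was above Rplp1 in 8 and Rplp1 above Rps4x in only 5, so these last 3 are not ordered beyond their spread. The lowest were Rpl27a (20.9 ± 6.50), Rps28 (20.5 ± 14.7), Rps21 (19.0 ± 12.2), Rps15a (14.2 ± 6.07) and Rpl35a (7.91 ± 4.25), all in RPKM with the SD over 12 libraries. Of these, Rps28 and Rps21 do not differ beyond their spread.
Per kilobase of principal transcript, Rplp0 (1050 ± 245 RPKM) and Rpl4 (686 ± 100 RPKM) stayed first, followed by Rpl3 (523 ± 89.6 RPKM), Rpl7 (476 ± 147 RPKM) and Rps4x (471 ± 106 RPKM). Rpl7 was above Rps4x in 5 of 12 libraries, and Rps4x above the next gene, Rpl13, in 6, so these are not ordered beyond their spread. The low end then held Rps20 (30.1 ± 12.3 RPKM) and Rps15a (17.1 ± 7.34 RPKM), whose annotated principal transcripts of 3706 and 5179 bases are the longest of the members. Levels were alike in order between the gates, with a rank correlation of 0.98 between mSC and nmSC over the 78 members, which share length and annotation. The counting rule for reads that fit several places is not stated, and ribosomal protein genes have many processed pseudogenes in the mouse genome, so the level of a single member may miss reads. The 9 listed genes named as such pseudogenes took at most 0.00203% of counts in any library. Together, Rplp0, Rpl4 and Rpl3 held 23.0% of all member counts, and the first 11 genes 46.7%.

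**Figure D5:**
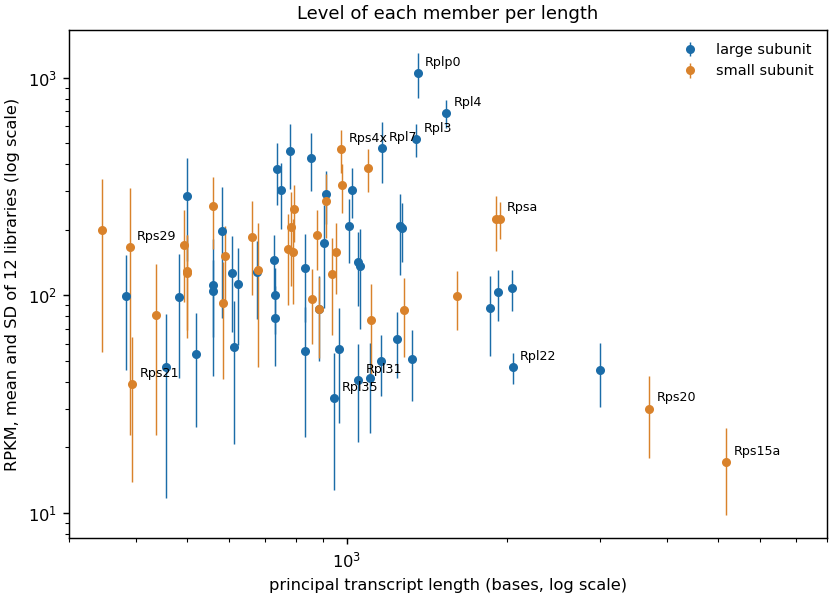
Mean level of the 78 tested members against length, as RPKM on the principal transcript with the SD of 12 libraries, both axes logarithmic (blue, large subunit; orange, small subunit). Rplp0 stands highest at 1050 RPKM and Rps15a lowest at 17.1 RPKM.

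The 3 members that did not pass the filter are paralogues known from testis or muscle. Rpl10l, a retrogene of Rpl10, had 43 counts over the 12 libraries, Rpl3l 37 and Rpl39l 33, with at most 9 counts in any library. At this depth no difference between gates could be detected for them. Their partners were well expressed: Rpl10 had 330 ± 34.8, 416 ± 180 and 355 ± 74.7 CPM, Rpl3 645 ± 16.3, 778 ± 194 and 696 ± 60.6 CPM, and Rpl39 28.7 ± 7.90, 35.4 ± 21.4 and 41.6 ± 35.0 CPM in allSC, mSC and nmSC (SD, n = 4). For the 4 pairs in which both genes passed the filter, the log2 ratio of RPKM on the exon union (pseudocount 0.5) within a library was compared between mSC and nmSC, which removes the scaling of the library. Which gene of a pair is higher can depend on the length used, so only the difference between gates is read. On the principal transcript, Rpl22 had 52.1 ± 8.82 and Rpl22l1 121 ± 66.4 RPKM in mSC (SD, n = 4). On that length Rps27 had 202 ± 107 and Rps27l 123 ± 75.6 RPKM in mSC (SD, n = 4). Rpl22 to Rpl22l1 had a log2 ratio of 0.28 ± 0.623 in mSC and 0.35 ± 0.424 in nmSC (SD, n = 4; two-sided exact permutation p = 0.857, 0.857 after Benjamini-Hochberg adjustment over 4 pairs). Rps27 to Rps27l had -0.09 ± 0.271 and -0.41 ± 0.455 (SD, n = 4; exact permutation p = 0.257, adjusted 0.686), a difference of 0.33. Rpl36a to Rpl36al had 0.43 ± 0.0382 and 0.50 ± 0.246 (SD, n = 4; exact permutation p = 0.657, adjusted 0.857), and Rpl7 to Rpl7l1 3.37 ± 0.481 and 3.07 ± 0.201 (SD, n = 4; exact permutation p = 0.343, adjusted 0.686). No pair passed the test, and 4 libraries against 4 allow no p under 0.0286. Rpl7l1, which works in ribosome assembly, had 75.8 ± 7.91 CPM in mSC and 79.0 ± 6.28 CPM in nmSC (SD, n = 4), and Rpl7 had 657 ± 285 and 522 ± 51.0 CPM (SD, n = 4).

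The genes that work beside the members did not all share their pattern. Fau, which joins a ubiquitin-like protein to a ribosomal protein, had 99.3 ± 59.4 CPM in mSC and 90.5 ± 52.1 CPM in nmSC (SD, n = 4; log2 fold change 0.13, adjusted p = 0.855 from edgeR). Of the 5 elongation factors 0 were called (smallest adjusted p = 0.0866 from edgeR, for Eef1d), and Eef1a1, which carries aminoacyl-tRNA to the ribosome, had 4353 ± 698 CPM in mSC and 4409 ± 657 CPM in nmSC (SD, n = 4). Of 8 other mRNAs known to carry a TOP motif, 0 were called higher and 1 lower in mSC: Hnrnpa1, a splicing factor, with 243 ± 26.3 CPM in mSC and 334 ± 41.2 CPM in nmSC (SD, n = 4; log2 fold change -0.46, adjusted p = 0.00540 from edgeR). Eif4b, Pabpc1, Tpt1, Rack1, Naca, Btf3 and Nap1l1 had log2 fold changes between -0.22 and 0.28. Of 13 subunits of eIF3, 0 were called.
Genes of ribosome synthesis and assembly were called in both directions. Of 80 tested, 27 were lower and 9 higher in mSC (background 20.1% and 20.4% of all tested genes), with a median log2 fold change of -0.22 beside -0.16 over all genes. Utp20 and Rrp12, of the small subunit processome and its export, fell by 1.07 and 0.92 on the log2 scale, Polr1b, a subunit of RNA polymerase I, fell by 0.90, all on adjusted p from edgeR (0.000116, 0.00461 and 0.000555). Las1l, which processes the rRNA spacer, rose from 188 ± 16.9 CPM in nmSC to 470 ± 35.1 CPM in mSC (SD, n = 4; adjusted p = 5.09e-09 from edgeR). In the 3 libraries that stood apart, this list had median deviations of -0.15 (mSC 1), 0.10 (mSC 4) and -0.00484 (nmSC 1).
Among 15 regulators of ribosomal protein synthesis, 5 were called higher and 2 lower in mSC, where 20.4% and 20.1% of all tested genes were. Rheb, the GTPase that activates mTORC1, had 216 ± 54.7 CPM in mSC and 102 ± 17.0 CPM in nmSC (SD, n = 4; log2 fold change 1.08, adjusted p = 1.10e-05 from edgeR). Myc, a transcription factor that drives ribosome synthesis, had 8.87 ± 2.99 and 51.9 ± 8.15 CPM (SD, n = 4; -2.53, adjusted p = 2.30e-09 from edgeR). Its relatives went the other way: Mycl had 10.9 ± 1.57 CPM in mSC and 1.51 ± 0.702 CPM in nmSC (SD, n = 4; 2.88, adjusted p = 6.16e-08 from edgeR), and Mycn rose by 0.51 (adjusted p = 0.00258 from edgeR). Eif4e, the cap-binding protein, and Tsc2, which inhibits Rheb, were higher in mSC by 0.41 and 0.39, and Mtor was lower by 0.35 on the log2 scale (adjusted p = 0.0152, 0.0331 and 0.0460 from edgeR). With library size alone Eif4e, Tsc2 and Mycn were at -0.16, -0.16 and -0.05, below 0 but above the median of all genes on that scale (-0.73), and the call of Mtor was lost under most alternatives, the removal of any nmSC library included. Larp1, which binds TOP mRNAs, had a log2 fold change of 0.17 (adjusted p = 0.441 from edgeR).
Nuclear genes of the mitochondrion shared the pattern over libraries in part. The 74 tested subunits of the respiratory chain and ATP synthase had median deviations of -0.70 in mSC 1, 1.10 in mSC 4 and 0.43 in nmSC 1. The 78 genes of mitochondrial ribosomal proteins had -0.38, 0.75 and 0.03. Of the respiratory chain genes 16 were higher and 0 lower in mSC, where 20.4% and 20.1% of all tested genes were, Cox7a1 by 1.72 (a gene near the limit of detection, at 1.33 ± 0.433 CPM in mSC and 0.405 ± 0.302 CPM in nmSC; SD, n = 4) and Ndufa13 by 1.5, and 10 mitochondrial ribosomal genes were higher and 1 lower, Mrpl43 rising by 1.30 and Mrps6 by 1.17 (log2 scale, adjusted p = 0.0198, 0.0152, 1.28e-05 and 0.00107 from edgeR). Of 19 core subunits of the proteasome 1 was higher and 2 lower in mSC, the latter being the immunoproteasome subunits Psmb8 (0.538 ± 0.272 CPM in mSC and 9.29 ± 0.938 CPM in nmSC; SD, n = 4) and Psmb9 (1.15 ± 1.28 and 4.79 ± 0.701 CPM; SD, n = 4). The difference between these lists and the members was not tested.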

How the data were processed

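RNA of sorted Schwann cells was made into Smart-Seq2 libraries (polyadenylated RNA, full length, no molecular identifiers), sequenced, aligned by the authors with STAR 2.6.1c and counted per gene with featureCounts, per the submitters' processing notes, which name GRCm38.p5. The paper's methods name a human build for this step, while the identifiers are those of mouse. The deposited values are raw counts, used as they stand. Strand, multi-mapping and overlap options are not given in the sources used here.

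Symbols, positions and lengths came from GENCODE M21 (GRCm38), which matched 25664 of 25700 identifiers. The principal transcript is the longest that the annotation marks as APPRIS principal, or the longest transcript where none is marked. The quasi-likelihood test of edgeR 4.0.16 (R 4.3.3) was run in 1 model of the 12 libraries by gate, with TMM scaling and edgeR's expression filter, and adjusted p-values over 18597 genes. DESeq2 1.42.0 was an alternative. The steps were tested on simulated data. CPM and RPKM were computed from the counts and TMM-scaled totals. Members and gene lists were chosen with earlier results of these data known. Genes were named by a rule: the 5 highest and lowest members by RPKM on the exon union, untested members, paralogue pairs, the 3 closest to no change, up to 5 with a library far from its gate, the small lists and up to 4 called genes per larger list. Others are said to have been chosen after their values were seen.

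The pairing comes from the subject number in the labels, shared by 1 library of each gate. The methods give 1 mouse per cell suspension and do not say in words that the gates shared it. The correlation of deviations from gate means between libraries of 1 number was -0.10 to 0.15 over all genes and, for mSC with nmSC over the members, -0.74, 0.27, -0.72 and -0.66. Libraries within gates differed beyond counting noise (chi-square per degree of freedom at least 4.03). Pairs of mSC 4 with mSC 1, mSC 2 and mSC 3 had 95.7, 50.6 and 53.5, and no other pair within a gate exceeded 22.1. Thus mSC 4 stood apart over genes in general, not only in the members. Intervals and floors cover counting error only. Host genes of small nucleolar RNAs, Riok2 and Rpl37rt were not analysed here. Some genes of the lists are not reported here.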

Additional observations from a re-analysis of the deposited data

Results flagged for a closer look

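In a gate of 4 libraries, a library was marked when its gap to the nearest other, relative to the gate's range, exceeded Dixon's critical value at 95%; chance marks about 1 in 20 such sets. Of 234 sets of 1 member in 1 gate, 21 were marked (8.97%), and 16 of the marks fell on nmSC 1. The sets share libraries, so the marks are not independent. Among the genes named, nmSC 1 was marked for Rpl38 (65.0 CPM; mice 2 to 4 ran from 9.50 to 15 CPM), Rps27 (208 CPM, against 31.1 to 52.7 CPM), Rps29 (235 CPM, against 33.2 to 59.7 CPM), Rps21 (40.5 CPM), Rps28 (108 CPM), Rps12 (138 CPM), Rpl36a (117 CPM), Rpl39 (93.5 CPM), Rpl35a (67.0 CPM), Rpl35 (82.9 CPM), Rpl31 (93.1 CPM), Rpl5 (290 CPM, against 206 to 212 CPM) and Rpl22 (114 CPM, against 81.1 to 85.9 CPM). Of the 16 members marked in nmSC 1, 12 have a principal transcript under 1000 bases, as do 50 of all 78 tested members.
In mSC 4, Rpl3 was marked at 1069 CPM, while mSC 1 to 3 ran from 666 to 693 CPM. In nmSC 3, Rpl4 was marked at 1209 CPM, while the rest of that gate ran from 990.2 to 1019 CPM. In allSC 1, Rpl23a was marked at 42.6 CPM, under 53.0 to 53.9 CPM in the other allSC libraries.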

How the results depend on the processing

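Of the counts of called members for mSC against nmSC (0 higher, 0 lower), 15 were lower with library size alone, 3 lower without the 50 genes with the most counts in the total, and 1 lower with a filter of 1 CPM, after thinning to the smallest library, and after thinning with the replicate block. In the main fit 7535 of the 18597 tested genes were called in either direction. In these other fits 11841, 9735, 7409, 6919 and 6645 genes were called, in that order. Length offsets on the exon union gave 2 higher (1 higher with the block, Rpl22), with 7860 of all tested genes called (7678 with the block). Of the alternatives added after the data were seen, principal transcript offsets gave 2 lower (1 with the block, Rpsa). These offsets with scaling on the members also gave 2 lower. The trend takes up a shift common to a library, so that is nearly the same fit and no separate check (median of all genes -0.04 in both). Leaving out mSC 4 and nmSC 1 together gave 1 higher (Rps25) and 2 lower (Rpsa and Rps3a1). Of all tested genes 7922 were called with principal transcript offsets, 7781 with the block added, and 7105 without the 2 libraries. Leaving out 1 library gave 0 to 4 higher and 0 to 4 lower: without mSC 1, Rpl15, Rpl7, Rplp0 and Rps3 were called higher, without mSC 4, Rpl8, Rps2, Rps3a1 and Rpsa lower, and without nmSC 1, Rps25 higher. These 3 fits called 7996, 7839 and 6581 of all tested genes, in that order. For mSC against allSC, library size alone gave 1 lower, length offsets 2 higher, and leaving out 1 library 0 to 9 higher, the 9 without mSC 1. Called among all tested genes for this comparison were 4434, 4284 and, without mSC 1, 4204. For nmSC against allSC, library size alone gave 3 higher, the total without the 50 genes 1, the fit of the 2 gates alone 1, and leaving out 1 library 0 to 1, the 1 (Rpsa) without mSC 4. Here the calls among all tested genes numbered 2978, 2196, 3032 and, without mSC 4, 2900. The member median minus that of all genes ran from -0.20 to 0.48 for mSC against nmSC, -0.03 to 0.62 for mSC against allSC and -0.07 to 0.36 for nmSC against allSC on leaving out 1 library, the lowest without mSC 4, mSC 4 and nmSC 1 in that order. The cause of these changes was not tested.
Libraries of 1 subject number are paired: with the replicate block alone 0 members were called in any comparison, and sign flips within mice gave exact p of 0.875, 0.125, 0.625 and 0.5 for the paralogue pairs in the order given above (smallest possible 0.125). The block alone changed no other call of the members.
The member share was 1.66%, 1.70% and 2.15% of the total without the 50 genes, where mSC lies above allSC by less than 1 SD of either, 2.18%, 2.03% and 2.81% per kilobase of exon union, and 2.61%, 2.33% and 3.67% per kilobase of principal transcript (allSC, mSC, nmSC). The highest over the lowest mean level was 61.2 on the principal transcript instead of 109 on the exon union, and the share of members with a pyrimidine run 45.9% for the run of 8 near the start instead of 21.3%.
Library size alone moved the median of all genes from -0.16 to -0.73, and with this common shift the log2 fold changes went below 0 for Rpl4 (-0.51), Rpl22 (-0.35), Rpl3 (-0.42), Rps2 (-0.60), Eef1b2 (-0.49), Eef1g (-0.45), Eef2 (-0.54), Rptor (-0.52), Larp1 (-0.41), Eif4e (-0.16), Tsc2 (-0.16), Mycn (-0.048) and Psma6 (-0.13). Without the 50 genes Rpl4 (-0.30) and Eef2 (-0.35) did, and without mSC 4 Rps2 (-0.29; leaving out 1 library gave Rps2 values up to 0.17). Of the other values of single genes under alternatives, 2405 kept their side of the threshold (304 of them, not called either way, with another sign), 80 passed it and 103 lost it.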
